A study of Mus musculus with 2 samples.

Results

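Cytochrome P450 enzymes form a large superfamily, and their genes were followed here on a pair of mouse microarrays, 1 of EpiSC and 1 of ELA-EpiSC. The members were 90 genes whose array name is Cyp followed by a family number, a subfamily letter and a gene number, together with Cyp51, out of 34649 gene and transcript names on the array. They were covered by 115 probes in 133 spots, and 70 of them had 1 probe each. E14Tg2A, a line of mouse embryonic stem (ES) cells of strain 129/Ola, was the source of both samples. EpiSC, epiblast stem cells that stand for primed pluripotency, were derived straight from ES cells kept in a chemically defined minimal medium that held FGF2 at 12 ng/mL and Activin A at 20 ng/mL. ELA-EpiSC were grown in the same medium with both factors, but started from epiblast-like aggregates (ELA). These are floating clumps that ES cells form once serum and LIF are withdrawn. The B27 supplement of that medium contained no vitamin A. Each array carried RNA pooled from 3 experiments, so there was 1 measurement per group and no test between the groups was possible. The groups follow the sample titles, although the source field of the EpiSC sample mentions an Argonaute immunoprecipitate.

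A P450 enzyme holds a heme group and adds an oxygen atom to its substrate. Enzymes of the endoplasmic reticulum take the electrons for this from cytochrome P450 reductase (Por), and those of mitochondria from ferredoxin (Fdx1) and its reductase (Fdxr). Some members build or break down sterols, steroid hormones, bile acids, vitamin D and retinoids, others act on fatty acids, and the largest group clears drugs and other foreign compounds, chiefly in liver and gut.

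The sequences that matter most for the account below are those of 3 neighbouring genes of the Cyp2j subfamily, whose signals were lower in ELA-EpiSC. The first 30 bases of the probe that measured each of them are shown to let the reader see that these are separate sequences, printed as the array design lists them.
Cyp2j6: ccttgaatgttcccagggaagtagcaatgg
Cyp2j8: aatttaccttcaagcccccaatcaatgaga
Cyp2j9: aaattaaggtgacagagagtgcgtgcaatg
The Cyp2j6 probe lay at chr4:96192532-96192591, the Cyp2j8 probe at chr4:96111331-96111390 and the Cyp2j9 probe at chr4:96235281-96235340 of mm9. Compared over all 60 bases with every probe of another gene name, none of them shared more than 61.7% of its bases, and the closest probe of each belonged to no P450 gene.

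The 250 bases before the annotated start of the same genes are shown because their signals differed in the same direction. They were taken from RefSeq on GRCm38.p6, minus strand, at chr4:96553652-96553901 for Cyp2j6, chr4:96507398-96507647 for Cyp2j8 and chr4:96591486-96591735 for Cyp2j9. Capitals mark the longest stretch found in all 3 windows on the same strand.
Cyp2j6: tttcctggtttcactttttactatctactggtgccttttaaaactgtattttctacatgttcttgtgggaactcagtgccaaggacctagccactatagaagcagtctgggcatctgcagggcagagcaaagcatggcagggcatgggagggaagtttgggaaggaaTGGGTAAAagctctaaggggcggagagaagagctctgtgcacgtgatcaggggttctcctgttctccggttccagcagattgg
Cyp2j8: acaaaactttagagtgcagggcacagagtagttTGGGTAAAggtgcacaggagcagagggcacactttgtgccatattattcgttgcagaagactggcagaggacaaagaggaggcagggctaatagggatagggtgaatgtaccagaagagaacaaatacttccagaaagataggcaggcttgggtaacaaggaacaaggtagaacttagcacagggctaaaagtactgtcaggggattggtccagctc
Cyp2j9: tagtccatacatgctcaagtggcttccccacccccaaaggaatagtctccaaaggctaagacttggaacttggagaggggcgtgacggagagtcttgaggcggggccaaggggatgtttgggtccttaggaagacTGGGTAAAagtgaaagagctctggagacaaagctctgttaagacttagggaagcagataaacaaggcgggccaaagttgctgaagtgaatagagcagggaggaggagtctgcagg
The shared stretch was 8 bases long, TGGGTAAA. On either strand it stood in 0.782% of 32851 RefSeq promoter windows of the same length and in 5 of the 69 members with such a window. Besides the genes printed these were Cyp2j5 and Cyp3a11. Aligned end to end, the windows of Cyp2j6 and Cyp2j8 were 44.8% identical, those of Cyp2j6 and Cyp2j9 44.0%, and those of Cyp2j8 and Cyp2j9 47.2%. Over all pairs of Cyp2j windows the range was from 42.8% (Cyp2j6 and Cyp2j13) to 50.0% (Cyp2j8 and Cyp2j11). Since the stretch was picked for being shared, its presence is a description of these windows and nothing more.

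Most P450 genes gave little or no signal in either cell type. The scanner software marks spots that stand well above background. A probe was called detected if this mark was on at least 0.5 of its spots, and a gene if any of its probes was. By this criterion 58 of the 90 members (64.4%) were detected on at least 1 array, against 74.6% of all names on the array. Of these, 47 were detected on both arrays, 5 on the EpiSC array alone and 6 on the ELA-EpiSC array alone. No such split is given for all names, so these counts do not set P450 genes apart from other genes. By probe, 54.8% of member probes were detected in EpiSC and 55.7% in ELA-EpiSC, against 65.8% and 65.0% of all probes. Levels are given as log2 of the normalized signal of the gene's brightest detected probe, a scale on which the lowest detected probe stood at 5.89 for EpiSC and 6.11 for ELA-EpiSC. On that scale 21 of the 90 members reached a mean level of 7.5 over both arrays, against 16648 of all 34649 names. The remaining 37 detected members lay between that level and the background, all those detected on 1 array alone among them. Probes differ in how strongly they hybridize, so levels of different genes were not ranked.

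**Figure D1:**
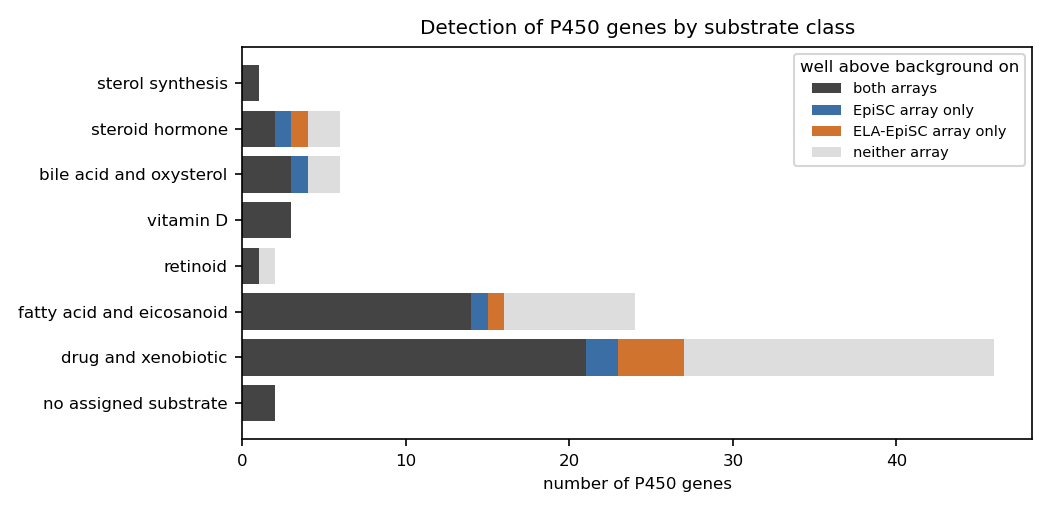
Number of P450 genes in each substrate class whose probes were well above background on both arrays, on 1 of them, or on neither. Of the 46 drug and xenobiotic genes 19 were detected on neither array, and all 3 vitamin D genes were detected on both.

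The other 32 members were detected on neither array. Among steroid hormone enzymes they were Cyp11b1 and Cyp11b2, which finish corticosteroid synthesis. Among bile acid enzymes they were Cyp7a1, the rate-limiting step of the classic pathway, and Cyp8b1. The retinoid hydroxylase Cyp26c1 was not detected. Of the fatty acid genes Cyp2j5, Cyp2j11, Cyp4a29, Cyp4a32, Cyp4b1, Cyp4f14, Cyp4f40 and Cyp4x1 stayed at background. The drug-metabolizing genes at background were Cyp1a2, Cyp2a12, Cyp2a22, Cyp2b9, Cyp2b13, Cyp2b23, Cyp2c39, Cyp2c50, Cyp2c54, Cyp2c55, Cyp2c68, Cyp2d13, Cyp2d34, Cyp2g1, Cyp3a16, Cyp3a25, Cyp3a44, Cyp3a57 and Cyp3a59. In the Cyp3a subfamily, the chief drug-clearing enzymes of liver, 2 of 7 genes were detected, and in Cyp2c 8 of 13. Of 6 hepatocyte markers 3 were detected, none at a mean level of 7.5: Tat read 7.23 in EpiSC and 7.51 in ELA-EpiSC, G6pc 6.48 and 6.54, and the member Cyp2e1 6.99 and 6.77. Albumin (Alb), Cps1 and Cyp7a1 were not detected on either array.

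The cell types were then compared gene by gene. The difference, log2 ELA-EpiSC minus log2 EpiSC, had a median of 0.00 over the 58 detected members, against -0.01 over all 25850 detected names. It was positive for 29 members and negative for 29, and 43 of the 58 (74.1%) differed by less than 0.5, against 78.9% of all detected names. Most of these are dim genes, whose differences the background offset shrinks. Of the 21 members with a mean level of at least 7.5, 12 (57.1%) differed by less than 0.5, against 72.7% of all names at that level, and their median was -0.10. Probes printed in 10 spots gave the only error available, a spot-to-spot SD of 0.10 for such a difference. It covers variation between spots within this pair of arrays, but not between labellings, hybridizations or cultures. Of the same 21 members, 1 was at least 1 log2 unit higher in ELA-EpiSC (4.76%, against 4.54% of all 16648 names at that level), and 3 were at least 1 unit higher in EpiSC (14.3%, against 4.46%). The single gene was Cyp7b1, and the 3 genes were Cyp2j6, Cyp2j8 and Cyp2j9, which lie side by side on chromosome 4. Scaling the arrays on spike-in control probes instead would add 0.54 to every difference given here, so each of them stands relative to most other genes on the array. In bulk samples such as these, fewer cells of a type and less RNA per cell cannot be told apart.

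Set side by side by substrate class, the classes had the following values, with no test between them. Of the steroid hormone genes 4 of 6 were detected, with a median difference of -0.13. Of the bile acid and oxysterol genes 4 of 6 were detected, with a median of 0.30. Of these, Cyp27a1 and Cyp46a1 differed by 0.01 and 0.02, less than the spot-to-spot SD, and changed sign under some of the alternatives. Of the fatty acid and eicosanoid genes 16 of 24 were detected, with a median of 0.09, and 10 of them reached a mean level of 7.5, with a median of the opposite sign, -0.24. Of the drug and xenobiotic genes 27 of 46 were detected, with a median of -0.01. Of the retinoid genes measured here 1 of 2 was detected. Fatty acid genes made up 10 of the 21 members at a mean level of at least 7.5, and drug and xenobiotic genes 3.

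**Figure D2:**
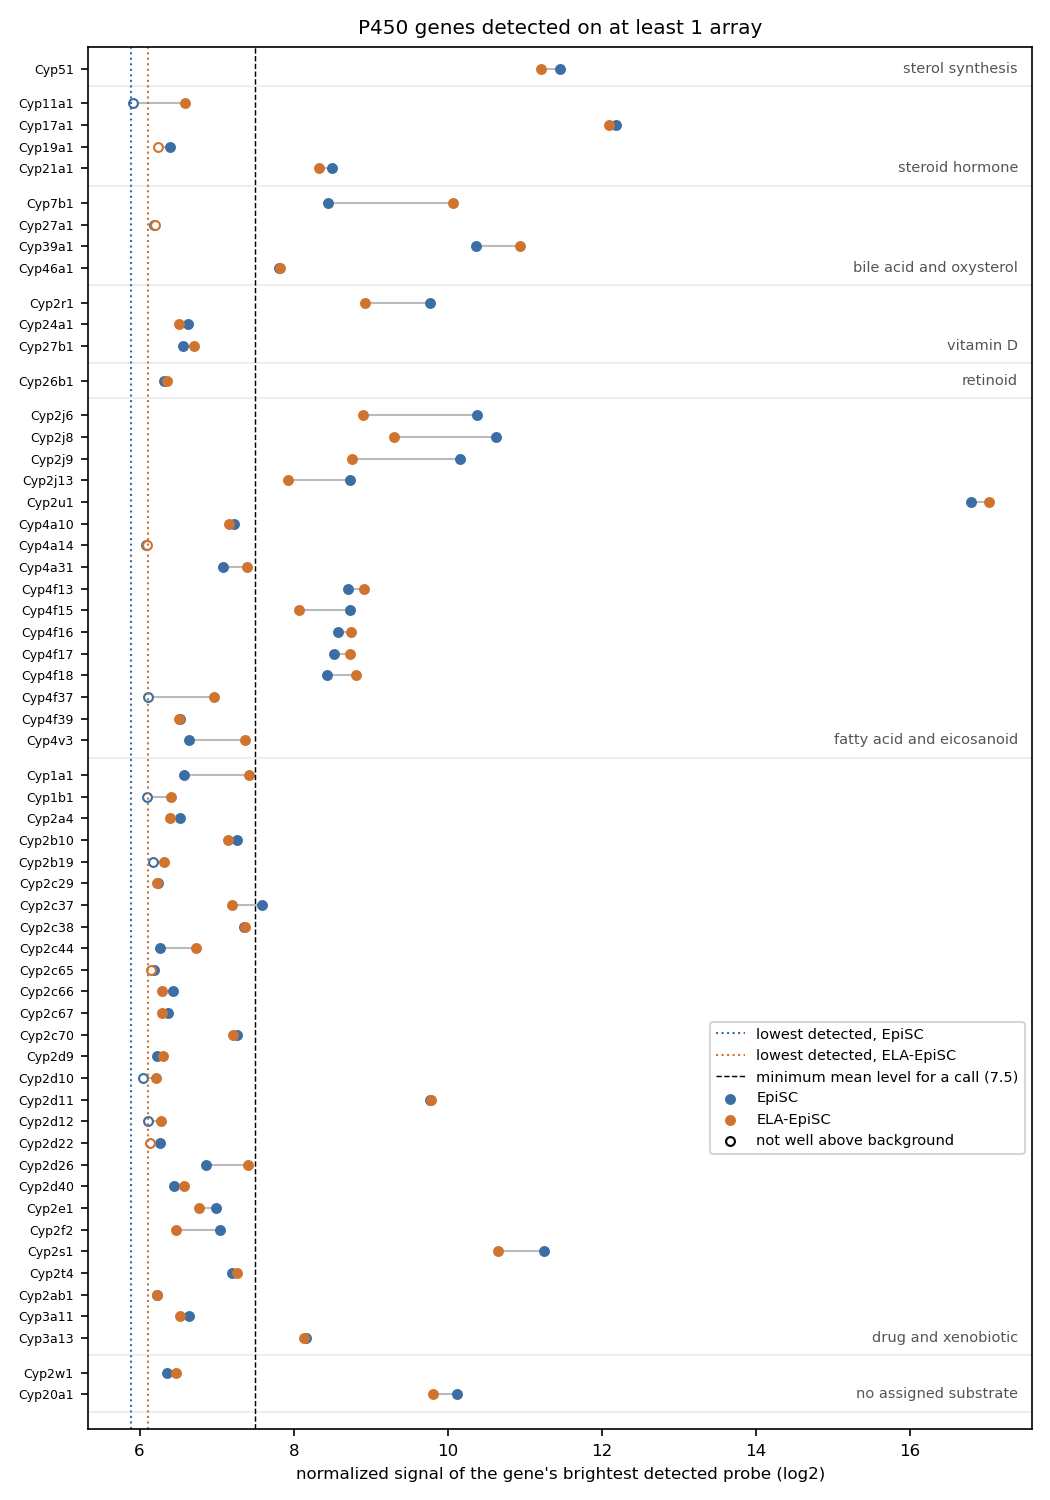
Normalized log2 signal of the 58 detected P450 genes on the EpiSC array (blue) and the ELA-EpiSC array (orange), grouped by substrate class. Open circles are values not well above background, dotted lines the lowest detected signal of each array, and the dashed line the mean level of 7.5. Cyp7b1 lies to the right in ELA-EpiSC, and Cyp2j6, Cyp2j8 and Cyp2j9 to the left.

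The Cyp2j enzymes oxidize arachidonic acid and related fatty acids, mainly to epoxides that act as local signals in vessel and heart. Cyp2j6 measured 10.38 in EpiSC and 8.90 in ELA-EpiSC, a 2.80-fold higher signal in EpiSC. Cyp2j8 measured 10.63 and 9.30, which was 2.51-fold higher in EpiSC. Cyp2j9 measured 10.16 and 8.75, a 2.66-fold higher signal in EpiSC. All 3 probes were well above background on both arrays, and before normalization their mean spot signals were 1167, 1390 and 998.7 in EpiSC against 495.7, 661.4 and 435.6 in ELA-EpiSC. Each difference was more than 10 times the spot-to-spot SD, which leaves out variation between labellings, hybridizations and cultures.

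These 3 probes lay within 124 kb of each other. Other probes of the same genes added less. A second Cyp2j6 probe, nearer to the background, read 7.07 and 6.62, a difference of -0.44 in the same direction, and a second Cyp2j8 probe was not detected. Cyp2j13, at the far end of the cluster and chosen after its values were seen, had 3 detected probes that did not move together. Its brightest probe, which maps over a splice junction (chr4:95712305-95723288, mm9), read 8.73 and 7.92, a difference of -0.81, whereas the others differed by 0.08 and 0.52. Cyp2j11 and Cyp2j5 were at background on both arrays, the former between Cyp2j13 and Cyp2j8 and the latter beyond Cyp2j9. An unnamed transcript between Cyp2j13 and Cyp2j11 was detected and differed by 0.21, and Gm12695, beyond Cyp2j5, was at background. Hook1 and Fggy, which flank the cluster beyond Cyp2j13, differed by between -0.18 and 0.08 over their 5 probes. By the brightest probe, signal was lower in ELA-EpiSC for 4 of the 6 Cyp2j genes, and the other 2 were not detected.

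**Figure D3:**
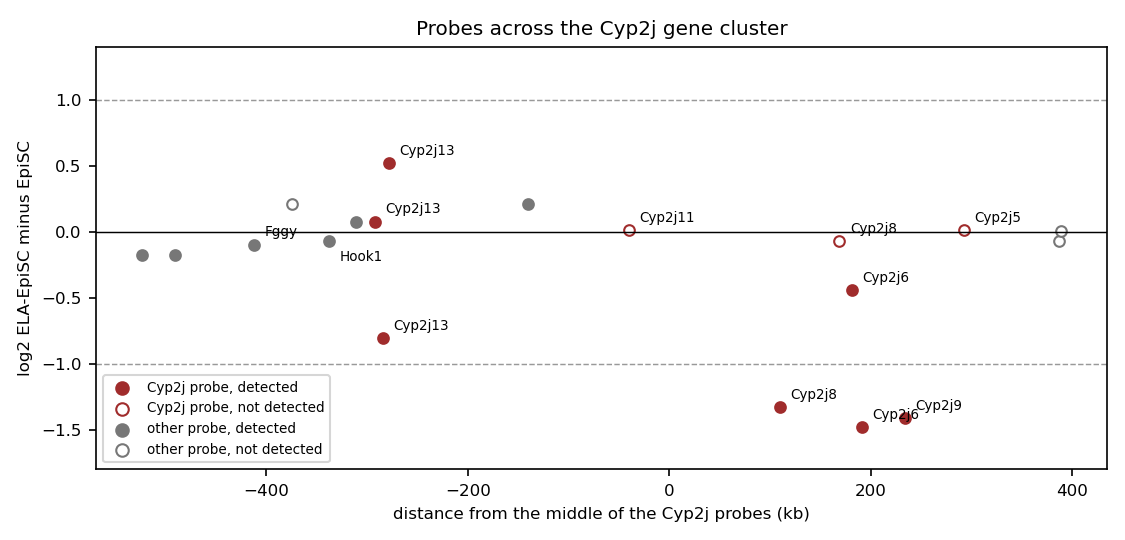
Difference between the arrays for each probe across the Cyp2j gene cluster, against distance in kb from the middle of the Cyp2j probes. Red points are Cyp2j probes, grey points other genes, and open points probes detected on neither array. The brightest probes of Cyp2j8, Cyp2j6 and Cyp2j9 lie between -1.33 and -1.48, below the dashed line at -1.

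The size of this difference depended on scaling. When the arrays were set equal on 8 detected spike-in control probes, the median of all names shifted to 0.53, and Cyp2j6, Cyp2j8 and Cyp2j9 differed by -0.95, -0.79 and -0.88, with the same sign but short of 1 unit. Without that scaling most visceral endoderm and trophoblast markers were also lower in ELA-EpiSC. Of the detected ones 13 and 5 were lower, and 4 and 1 were higher. Of 17 visceral endoderm markers all were detected, their mean level was 9.82 in EpiSC and 8.45 in ELA-EpiSC, and 5 (Ambp, Amn, Gata4, Hnf4a and Ttr) were at least 1 unit higher in EpiSC at a mean level of at least 7.5, while none was higher in ELA-EpiSC by as much. Of 7 trophoblast markers 6 were detected, with mean levels of 9.26 and 7.98, and Ascl2, Gata3 and Elf5 were at least 1 unit higher in EpiSC. The endoderm marker Afp was dim on both arrays, at 6.26 and 6.47, and slightly higher in ELA-EpiSC. The part of these cell types in the Cyp2j difference was not tested.

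No other fatty acid enzyme at a mean level of 7.5 differed by 1 unit. The Cyp4f subfamily hydroxylates the end of fatty acid and leukotriene chains, and 7 of its 9 genes were detected. Cyp4f13 measured 8.70 in EpiSC and 8.91 in ELA-EpiSC, differing by 0.21. Cyp4f16, Cyp4f17 and Cyp4f18 were likewise slightly higher in ELA-EpiSC, by 0.17, 0.22 and 0.37, and the second probe of Cyp4f18 gave 0.40. Cyp4f15 was lower in ELA-EpiSC, at 8.73 in EpiSC and 8.07 in ELA-EpiSC. Cyp4f37, chosen after its values were seen, was detected in ELA-EpiSC alone, at 6.97, 1.82-fold above its undetected EpiSC value with this processing. Cyp4v3, a fatty acid hydroxylase of the eye and other tissues, measured 6.63 and 7.37, a difference of 0.74 that came to between 0.55 and 1.31 over the alternatives.

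Cyp2u1, which hydroxylates long-chain fatty acids, shows how far the probes of 1 gene can part. Its 3 probes read 16.79, 7.69 and 6.39 in EpiSC and 17.03, 7.63 and 6.34 in ELA-EpiSC. The differences were small on all of them, at 0.24, -0.05 and -0.05, but the probes do not settle the gene's level.

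Among bile acid and oxysterol enzymes, Cyp7b1 was the member past 1 unit. It hydroxylates oxysterols and some steroids, and acts in the alternative bile acid pathway. Its probe, at chr3:17972286-17972345 (mm9), begins as follows.
Cyp7b1: ttggttgagatcaatccagttggttttggg
Cyp7b1 measured 8.45 in EpiSC and 10.06 in ELA-EpiSC, which was 3.07-fold higher in ELA-EpiSC. Under each of the 10 alternative ways of computing the value the difference stayed past 1 unit, between 1.57 and 2.15. No second probe of Cyp7b1 was on the array, and no probe of another gene name was more than 61.7% identical to it.

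The enzymes that work around it were flatter. Cyp39a1, which hydroxylates an oxysterol made in brain, read 10.36 and 10.93, a difference of 0.57 that became 1.11 with spike-in scaling. Cyp46a1, the neuronal enzyme that makes that oxysterol from cholesterol, read 7.80 and 7.83. Cyp27a1, the mitochondrial sterol hydroxylase, was printed in 10 spots and lay at the edge of detection. Its spots ranged from 6.10 to 6.27 around a median of 6.19 in EpiSC, with 5 of them above background, and from 6.07 to 6.37 around 6.20 in ELA-EpiSC, with 4 above background. The arrays overlapped for this gene, so its detection on the EpiSC array alone is a matter of 1 spot.

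Cyp51, the lanosterol demethylase of cholesterol synthesis, measured 11.46 in EpiSC and 11.20 in ELA-EpiSC, differing by -0.25 that turned to 0.28 with spike-in scaling. It was not alone in being slightly lower. Of 17 other genes of the sterol pathway, all detected, 14 were lower and 3 higher in ELA-EpiSC, with a median difference of -0.38, against -0.01 over all detected names. With spike-in scaling the median of the list was 0.16 and 5 were lower, where the median of all names was 0.53. Only Idi1, which isomerizes isopentenyl diphosphate, passed 1 unit, at 14.51 and 13.49.

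Of the steroid hormone enzymes 2 reached a mean level of 7.5. Cyp17a1, the hydroxylase and lyase that leads to androgens, measured 12.18 in EpiSC and 12.09 in ELA-EpiSC. Cyp21a1, needed for corticosteroids, measured 8.50 and 8.33 by 1 of its probes, while the other was not detected. Cyp11a1, which cuts the cholesterol side chain and starts the pathway, was not well above background in EpiSC. It read 6.59 in ELA-EpiSC, 1.59-fold above its undetected EpiSC value. Cyp19a1, aromatase, was detected in EpiSC alone, at 6.39, 1.12-fold above its undetected ELA-EpiSC value. Both lay near the background, and their values depended on the processing. Without the offset the differences were 2.15 and -0.43, and over all alternatives they ranged from 0.35 to 3.79 and from -1.24 to 0.38. Star, which carries cholesterol to Cyp11a1, read 6.80 and 6.75. Of the 7 other steroidogenic genes 5 were detected and 1, Srd5a1, reached a mean level of 7.5, at 11.32 and 10.65.

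In the vitamin D pathway Cyp2r1, which carries out the first hydroxylation, measured 9.77 in EpiSC and 8.92 in ELA-EpiSC, 1.80-fold higher in EpiSC, by 1 of its probes, while the other was not detected. The activating enzyme Cyp27b1 read 6.57 and 6.70 and the degrading enzyme Cyp24a1 read 6.63 and 6.51, both close to background. The vitamin D receptor Vdr was detected in EpiSC alone, at 6.66.

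The retinoid hydroxylase Cyp26b1, which breaks down retinoic acid, was barely above background at 6.31 in EpiSC and 6.35 in ELA-EpiSC. Other retinoid genes were not as quiet. Of 12, all detected, Rdh10 and Dhrs3, which interconvert retinol and retinal, were 1.83 and 1.61 units higher in ELA-EpiSC, while the receptor Rarb and the carriers Stra6 and Crabp2 differed by -3.28, -1.26 and -1.02. A further Rarb probe differed by 0.08.

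In the drug-metabolizing class, the largest, Cyp2s1, Cyp2d11 and Cyp3a13 were the 3 genes that reached a mean level of 7.5. Cyp2s1, an enzyme found mostly outside the liver, measured 11.25 in EpiSC and 10.65 in ELA-EpiSC, 1.52-fold higher in EpiSC. With spike-in scaling this difference came to -0.07, within the spot-to-spot SD. Cyp2d11 read 9.77 and 9.79. The 24 detected below that level differed by between -0.57 for Cyp2f2, at 7.04 and 6.48, and 0.84 for Cyp1a1. Cyp2c29, like Cyp27a1, was printed in 10 spots, and its spots spanned 6.15 to 6.33 in EpiSC and 6.12 to 6.35 in ELA-EpiSC, an almost complete overlap. The detected probe of Cyp2c67 and the probe of Cyp2c68, which was not detected, were 90.0% identical. A second Cyp2c67 probe, at most 63.3% identical to a probe of another gene name, was not detected either. Whether the detected probe measured Cyp2c67 alone was not tested.

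Cyp1a1 and Cyp1b1 are the classic targets of the aryl hydrocarbon receptor (Ahr), a sensor of planar aromatic compounds. Cyp1a1 measured 6.58 in EpiSC and 7.42 in ELA-EpiSC, differing by 0.84 at a mean level below 7.5. Without the offset that difference was 1.41, and over the alternatives it ranged from 0.65 to 1.66. Cyp1b1 was detected in ELA-EpiSC alone, at 6.41, a difference of 0.31 that ranged from -0.01 to 2.32 over the alternatives and so has no settled direction. Ahr itself read 10.55 and 11.46, its partner Arnt 11.40 and 11.68, and its target Tiparp 11.67 and 12.52. The differences of these 3 genes were 0.91, 0.28 and 0.85, and the second Ahr probe differed by 0.12. The repressor Ahrr was level at 7.12 and 7.12.

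Of the 9 members with at least 2 detected probes, the differences of the probes had opposite signs in 3 (Cyp2j13, Cyp2u1 and Cyp4a10) and lay more than 1 unit apart in 3 (Cyp2j6, Cyp2j13 and Cyp3a13). The Cyp4a10 differences were only -0.07 and 0.13, and the probe of the second was 90.0% identical to a Cyp4a31 probe. Cyp3a13, a drug-metabolizing enzyme chosen after its values were seen, had the widest gap of these 9. Both probes lie on chromosome 5 (mm9), at chr5:138334265-138334324 and chr5:138335412-138335471, and begin with unrelated bases.
Cyp3a13, first site: ctagttccacccatttacctgcaaaattca
Cyp3a13, second site: cctgtggaccagaaaccaattcatattgtg
The probe at the first site read 8.15 in EpiSC and 8.14 in ELA-EpiSC. The probe at the second site read 8.21 and 6.18, which was 4.08-fold higher in EpiSC. The first was the brighter by its mean and so stood for the gene, and with the mean of both probes Cyp3a13 would have counted among the genes 1 unit higher in EpiSC. Neither probe was 80% identical to a probe of another gene, and whether they measure different transcripts was not tested.

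Cyp20a1, a member with no settled substrate, measured 10.12 in EpiSC and 9.81 in ELA-EpiSC, and its second probe differed by -0.13. Cyp2w1, of the same kind, read 6.36 and 6.47.

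The genes for the machinery that P450 enzymes share were detected throughout. All 9 redox partners were above background on both arrays and none differed by 1 unit, although Cyb5r3 would with spike-in scaling. Por measured 13.05 in EpiSC and 12.98 in ELA-EpiSC, Fdx1 13.23 and 13.33, and Fdxr 11.30 and 11.14. All 8 genes of heme synthesis were detected and none differed by 1 unit, with a range from -0.51 for Fech to 0.67 for Cpox, and Cpox would with spike-in scaling. The P450 gene Ptgis, prostacyclin synthase, which carries no Cyp symbol, measured 11.89 and 11.74, and Tbxas1, thromboxane synthase, was not detected. Of 19 receptors and regulators of P450 genes 17 were detected and 1 passed 1 unit. This was Hnf4a, a liver and endoderm regulator, at 12.79 in EpiSC and 7.67 in ELA-EpiSC. With spike-in scaling Ahr, Tiparp and Rxrb would pass it too, higher in ELA-EpiSC. The pregnane X receptor Nr1i2 and the bile acid receptor Nr1h4 were not detected. All 7 pluripotency and epiblast markers were detected on both arrays, with differences between -0.31 for Sall4 and 0.61 for Utf1.

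**Figure D4:**
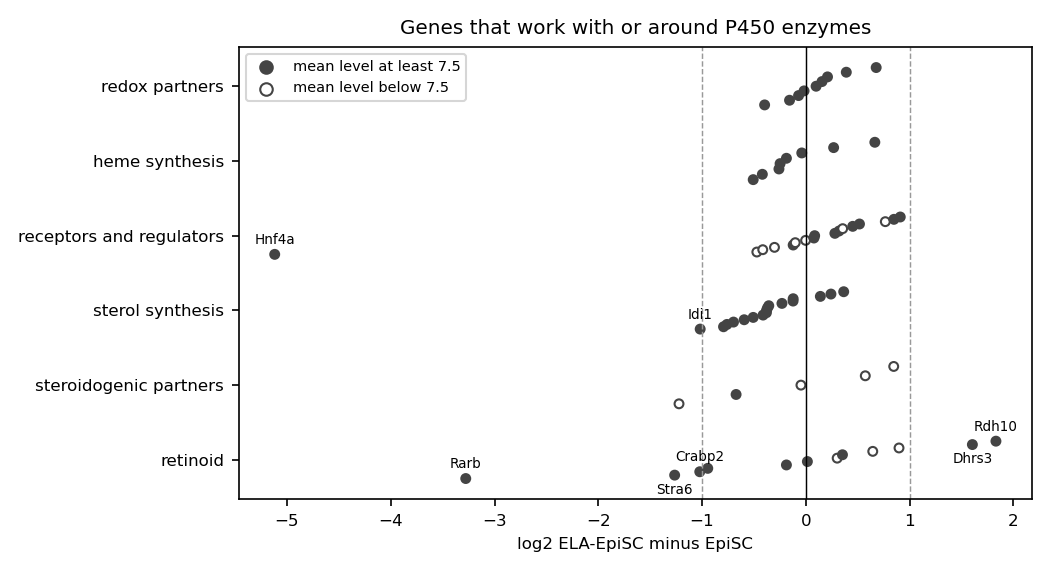
Difference between the arrays for genes that supply, regulate or work beside P450 enzymes, 1 point per detected gene, filled where the mean level was at least 7.5. Redox partners and heme synthesis genes stay within 1 unit of 0, whereas Hnf4a lies at -5.12.

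**Figure D5:**
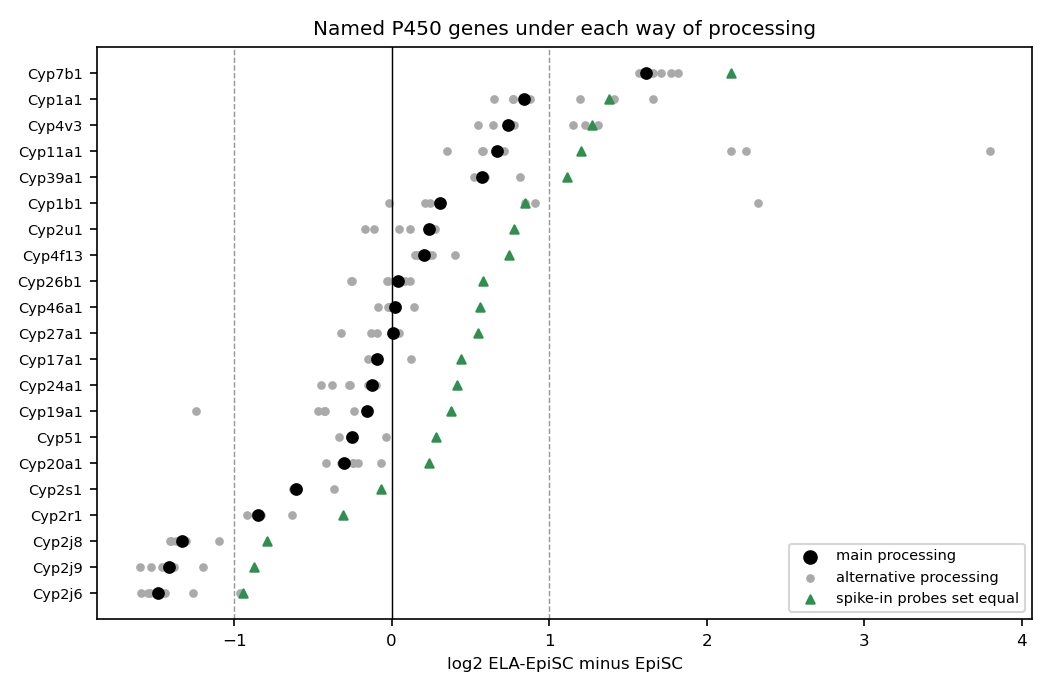
Difference between the arrays for 21 named P450 genes under the processing used here (black), the alternatives (grey) and spike-in scaling (green triangles). Cyp7b1 stays past 1 unit throughout, and Cyp2j6, Cyp2j8 and Cyp2j9 stay below 0.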

How the data were processed

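RNA of 1 EpiSC and 1 ELA-EpiSC sample had been hybridized by the authors to one-colour Agilent arrays on 1 slide. The scanner files as deposited give linear, unnormalized intensity per spot, made with Feature Extraction 10.7.3.1 per the file headers (9.1 in the submitters' processing notes), with probe positions on mm9. The authors also deposited log2 values, background-corrected and quantile normalized with limma by their methods, which served as an alternative. The labels give 50 ng of labelled RNA.

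Here, mean spot signals were corrected with normexp (offset 50, limma 3.58.1, R 4.3.3) on all spots, control and outlier-flagged spots were removed, arrays were quantile normalized, and spots of 1 probe averaged on the log2 scale. The offset shrinks differences of dim genes, and quantile normalization hides a shift shared by all genes. No member spot was flagged or saturated. A gene took its brightest detected probe. A gene counted as past the threshold at a difference of 1 unit with a mean level of 7.5. Genes detected on 1 array only were compared with the higher of their own dim value and the weakest detected probe on the other. In each fold given here that was the own dim value, so the fold is no lower limit. The procedure was tested on simulated data in which some bright probes were changed by more than the threshold. That setting does not cover dim genes, smaller differences or a shift of all genes. With 1 array per group no test was run.

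The members, classes and lists were chosen with earlier results of these data known. Named genes were all members past the threshold, the brightest detected member of each class, a list of 18 members of known function, and partner genes past the threshold. P450 names outside the rule appear only in the closing section, and 1 gene of the family is not reported here. Windows before gene starts came from RefSeq (GRCm38.p6), and 69 of 90 members had one. Arrays limit the precision by their number, 2.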

Additional observations from a re-analysis of the deposited data

How the results depend on the processing

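No paired analysis was possible because the design has 1 array for EpiSC and 1 for ELA-EpiSC. Most values held. The count higher in ELA-EpiSC stayed at 1 (Cyp7b1) under all alternatives except spike-in scaling, which gave 2 by adding Cyp39a1. The count higher in EpiSC became 0 with spike-in scaling, 4 with processed signals (adding Cyp2j13) and 7 at a threshold of 1.5-fold (adding Cyp2j13, Cyp2r1, Cyp2s1 and Cyp4f15). It stayed at 3 with the mean of a gene's probes, but Cyp3a13 then replaced Cyp2j6, which came to -0.96. With spike-in scaling all names shifted too: 2496 were past 1 unit higher in ELA-EpiSC and 306 in EpiSC, against 756 and 742. The median difference of the detected members was -0.14 with processed signals, -0.23 with scaling to the 75th percentile and 0.54 with spike-in scaling, where the median of all names was -0.09, -0.18 and 0.53. Of the 21 named genes 11 kept their sign throughout. Among those that changed sign, 6 differed by more than the spot-to-spot SD under the processing used here. Requiring detection on both arrays left 47 members, and requiring all spots above background left 56. The causes were not tested. Signal over background limits the dim members: the difference of Cyp11a1 was 0.67 with an offset of 50 and 2.15 with none.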

Other observations

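Some neighbours of P450 genes differed more than the P450 gene itself, and others differed less or were level. Beside Cyp3a13 on chromosome 5 lie Pilra, Pilrb1 and Pilrb2, which encode paired immunoglobulin-like receptors. Pilrb1 measured 8.93 in EpiSC and 6.41 in ELA-EpiSC, the brightest Pilrb2 probe 10.36 and 6.81, and the brightest Pilra probe 12.83 and 8.25, while another Pilra probe was level at 7.03 and 7.01. On the other side of Cyp3a13, Gjc3 and Azgp1 differed by -0.04 and -0.05. The neighbour of Cyp7b1, the transcription factor gene Bhlhe22, measured 6.98 and 8.25, higher in ELA-EpiSC as Cyp7b1 was. Its difference of 1.28 was less than the 1.62 of Cyp7b1. Near Cyp17a1, which was level, Sfxn2 measured 10.99 and 9.57 and 2010012O05Rik differed by -0.92. In the same window Wbp1l differed by -0.16 and As3mt by 0.56. These windows were chosen after the values were seen.

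Of 7 probes named as P450 genes or pseudogenes but outside the naming rule, Cyp4f41-ps, a pseudogene of the Cyp4f subfamily, measured 6.87 in EpiSC and 7.76 in ELA-EpiSC. Cyp4a12b was dim at 6.52 and 6.41, and the others were not detected on either array.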
